A study of Olea europaea with 24 samples.

Results

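Of the 50663 rows in the count table of this olive study, 12 carry names that begin with mex, dpe, starchp, aglucan or gluct: mex1, mex2, mex3, dpe1, dpe2, starchp1, starchp2, starchp3, starchp4, aglucan1, aglucan2 and gluct1. The rule that picks them uses the name and no measured value, and they belong to 97 rows that the authors named after carbohydrate genes. After a filter on low counts 11 of the 12 were tested. The exception was starchp4, which held 0 to 13.03 expected counts per library and was at 0 in 12 of 24 libraries, including all 3 libraries of dried trees on 23 May and all 3 on 6 June.

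Branches of 6 olive trees were sequenced on 4 days, 7 May, 23 May, 6 June and 29 July, the later days falling 16, 30 and 83 days after the first. Trees 3, 9 and 11 formed the watered arm and trees 4, 8 and 12 the dried arm, which gave 8 groups of 3 libraries, 1 from each tree. Per the labels, irrigation was 1.2 L per day, and the dried trees received 1 L per week for 2 weeks and then no water for 2 weeks. Which sampling days fell in the dry weeks is not stated. Neither the cultivar nor the age of the trees is given in the sources used here, and with no gene names beyond the authors' own the labelled tissue could not be checked by markers. In whole branches, fewer cells of a type and less RNA per cell cannot be told apart.

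In plants such as Arabidopsis, starch stored in plastids is broken down largely to maltose, which the transporter MEX1 exports to the cytosol. There the disproportionating enzyme DPE2 transfers glucose from maltose to a glucan, while DPE1 works inside the plastid on short glucans left from starch. Starch phosphorylases release glucose 1-phosphate from the ends of glucan chains. The sources used here do not say whether the numbers in the olive names follow those of Arabidopsis, nor what the names aglucan and gluct stand for, so no role is given for those 3 rows.

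The libraries held 6675182 to 14122752 counts. A set of 19 abundant rows whose shares varied together took 11.1% to 91.1% of a library, which left 1013215 to 9136886 counts for all other rows. On 6 June these abundant rows took 57.5% to 91.1% in dried trees and 14.3% to 78.2% in watered trees. On 29 July they took 11.1% to 74.0% in dried trees and 22.7% to 42.1% in watered trees. The libraries of dried tree 4 on 6 June and dried tree 8 on 23 May were the shallowest outside these rows, with 1059898 and 1013215 counts. The library of watered tree 9 on 7 May was unlike its group, correlating at 0.48 and 0.61 with the other libraries over tested rows while those correlated at 0.88 with each other. The 23 May library of tree 9 was nearly as far from its companions, at 0.48 and 0.64, while those correlated at 0.80. No fit left out that 23 May library alone.

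**Figure D1:**
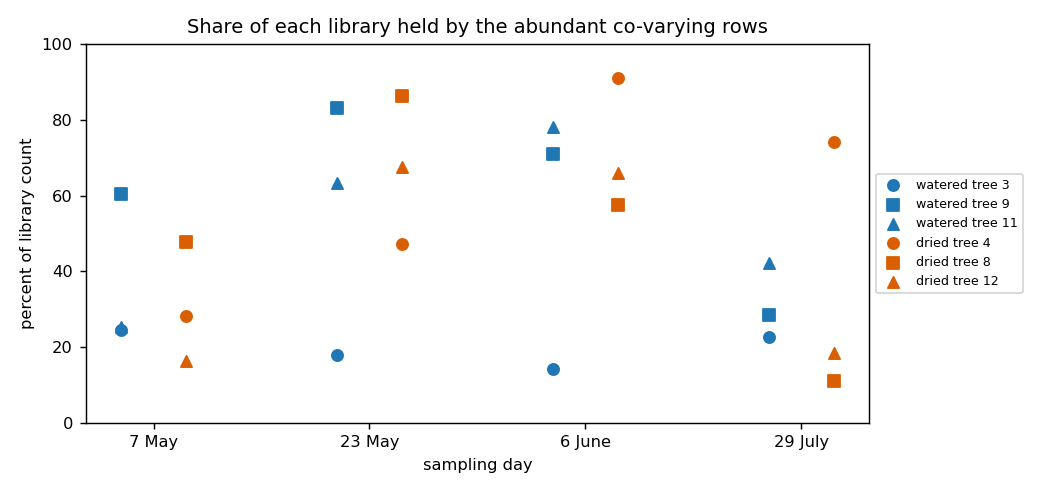
The percent of each library's count (vertical axis) held by the 19 abundant rows on the 4 sampling days, 1 point per library, with colour for the arm and shape for the tree. Dried libraries of 6 June lie between 57.5% and 91.1%, and watered libraries of that day between 14.3% and 78.2%.

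The maltose exporter row mex1 was almost missing in dried trees on 6 June and present in every library of 29 July. It held 1, 0 and 2 counts in dried trees 4, 8 and 12 on 6 June, against 124, 22 and 14 in watered trees 3, 9 and 11 on that day. In the same dried trees it had held 88, 25 and 31 counts on 7 May and 24, 0 and 19 on 23 May, and it held 58, 152 and 169 on 29 July. All 3 dried trees were therefore lower on 6 June than on 7 May and higher again on 29 July. Watered trees 3, 9 and 11 held 97, 1 and 76 counts on 7 May, 61, 36 and 28 on 23 May, and 106, 140 and 59 on 29 July. The single count in watered tree 9 on 7 May and the 36 counts on 23 May came from libraries far from their companions.

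The mex1 counts of dried trees on 6 June were below those that their effective library sizes give at the watered rate. The effective library size is the count in tested rows times the TMM scaling factor. On 6 June it was 26890237 in watered tree 3 and 1663225 in dried tree 4, from total counts of 10663027 and 11929380. At the pooled rate of the watered trees on that day, the libraries of dried trees 4, 8 and 12 would have held 7.35, 24.9 and 33.4 counts. They held 1, 0 and 2, so the shortfall was clearest in trees 8 and 12 and least sharp in tree 4, the shallow library. Pooled over the group, 3 counts in dried trees stood against 160 in watered trees, a rate 21.9-fold lower with an exact 95% interval of 7.36 to 107 that covers counting error only. Watered tree 3 held 124 of those 160 counts. Over the 24 libraries Pearson's r between the mex1 level in log2 CPM (the log2 of counts scaled to the size of the library, with a prior count of 2) and the percent of counts in the abundant rows was -0.44, and the part of that percent in the shortfall was not tested.

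**Figure D2:**
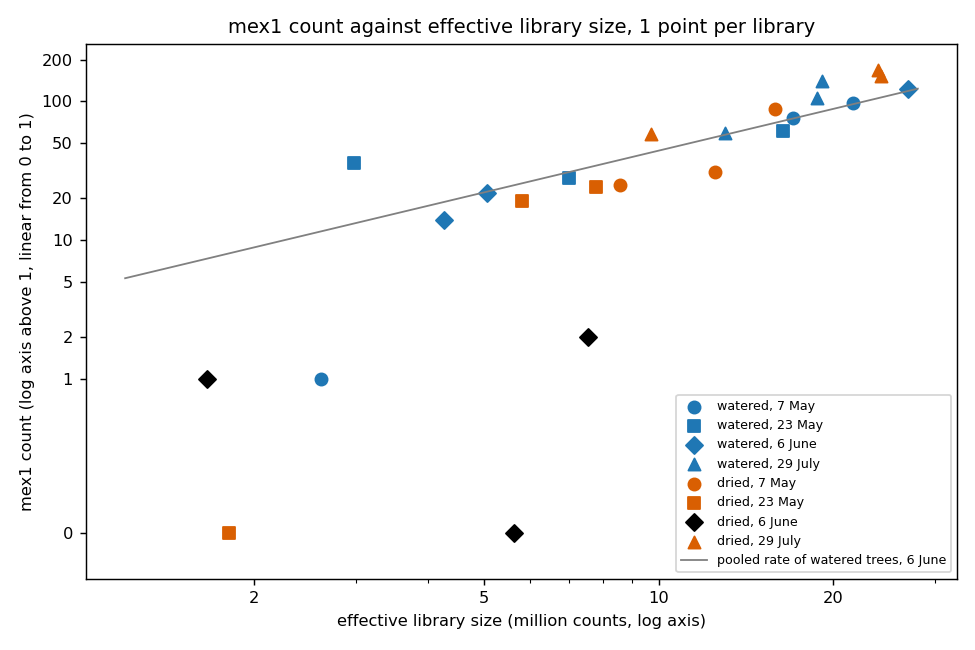
The mex1 count of each library (vertical axis, log above 1) against its effective library size (horizontal log axis), with the line giving the pooled rate of watered trees on 6 June. The 3 black diamonds, dried trees on 6 June with 1, 0 and 2 counts, lie far below the line. So do watered tree 9 on 7 May with 1 count and dried tree 8 on 23 May with 0. Further libraries of both arms lie below the line but nearer to it, such as dried tree 12 on 7 May and watered tree 11 on 6 June.

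The question of whether drying lowered mex1 was tested with edgeR's quasi-likelihood test, with p-values adjusted over all 29107 tested rows. On 6 June the dried-minus-watered log2 fold change was -4.20 ± 1.05 (SE, n = 3 and 3, edgeR adjusted p = 0.0577), which missed the 0.05 threshold although the groups did not overlap. It passed without the watered 7 May library of tree 9 (-4.23, adjusted p = 0.00989), without tree 9 altogether (-4.21, adjusted p = 0.0228), with no filter on low counts (-4.25, adjusted p = 0.0456) and in DESeq2 (-4.36, adjusted p = 0.0019). Of all rows with an adjusted p these settings called 11.2%, 7.58%, 1.12% and 15.1%, against 0.103% in the main fit. The row did not pass without tree 3, 4, 8, 11 or 12, or with the libraries of that day alone. Nor did it pass with DESeq2 size factors in edgeR, without the 2 shallow libraries or with rows that share reads summed. Over all edgeR alternatives the fold stayed between -4.78 and -3.53. Leaving out the abundant rows gave -4.10 (adjusted p = 0.0615) and moved the median fold over the rows in both fits by 0.11. On the other days mex1 differed by 0.15 ± 0.75 on 7 May (adjusted p = 1), -1.47 ± 0.79 on 23 May (adjusted p = 0.485) and 0.14 ± 0.74 on 29 July (adjusted p = 1). On 23 May the arms were separate only narrowly, with watered trees at 1.96, 3.62 and 2.06 log2 CPM and dried trees at 1.70, -2.54 and 1.78. The -2.54 was a count of 0 in the shallow library of dried tree 8, where the pooled watered rate of that day gives 8.6. The 3.62 came from the library of watered tree 9 that was far from its companions.

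**Figure D3:**
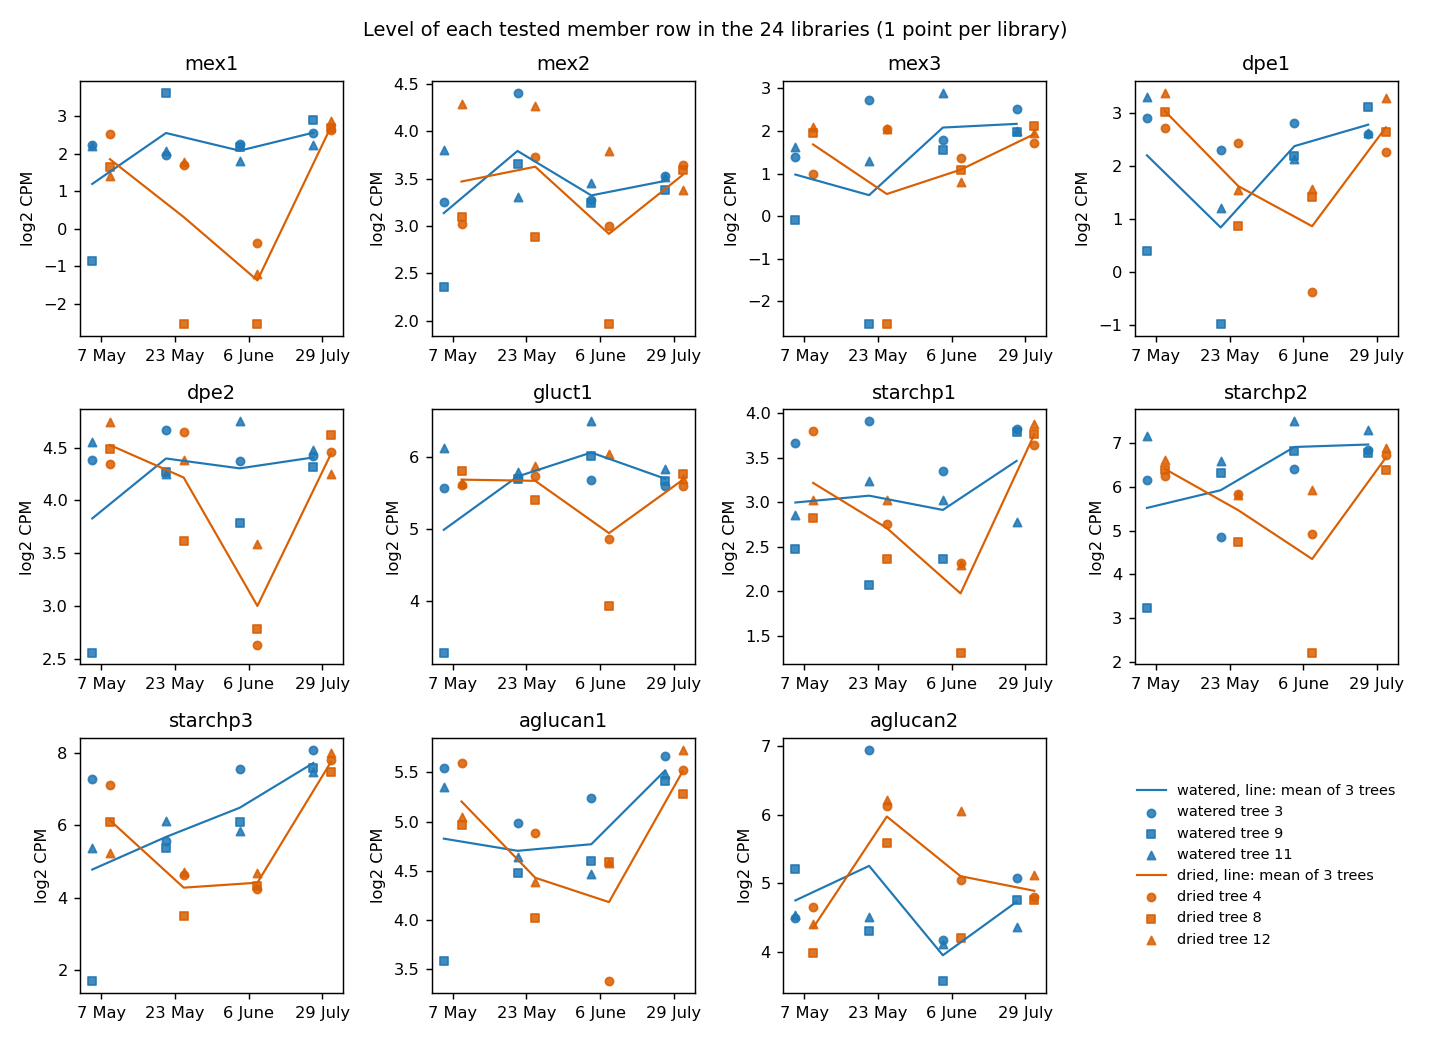
The log2 CPM (vertical axis) of each of the 11 tested rows on the 4 sampling days, 1 point per library, with colour for the arm. In the mex1 panel the dried trees of 6 June lie from -2.54 to -0.37, below every watered tree of that day, and on 29 July both arms lie between 2.23 and 2.90.

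The other rows named for maltose export showed smaller gaps between arms than mex1. For mex2 the dried trees on 6 June stood at 3.00, 1.96 and 3.79 log2 CPM and the watered trees at 3.28, 3.24 and 3.45, so the arms overlapped. Its group means ran only from 2.92 in dried trees on 6 June to 3.79 in watered trees on 23 May. For mex3 the dried trees on 6 June stood at 1.37, 1.09 and 0.81 log2 CPM, all below the watered trees at 1.78, 1.56 and 2.90. The mex3 fold was -1.18 ± 0.91 (SE, edgeR adjusted p = 0.461). Counts of mex2 and mex3 were not whole numbers in 22 of 24 libraries each, the sign of reads that RSEM divided between similar rows, so the split between them is uncertain, whereas mex1 was whole in every library.

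Both disproportionating rows stood lower in dried than in watered trees on 6 June, without passing the test. For dpe2 the dried trees 4, 8 and 12 stood at 2.63, 2.79 and 3.59 log2 CPM and the watered trees 3, 9 and 11 at 4.37, 3.79 and 4.75, with no overlap. The dpe2 fold was -1.28 ± 0.44 (SE, edgeR adjusted p = 0.0916). In every other group except watered trees on 7 May the dpe2 mean lay between 4.22 and 4.52. The exception averaged 3.83 ± 1.10 (SD, n = 3), since tree 9 stood at 2.56 and its companions at 4.38 and 4.55. For dpe1 the dried trees on 6 June stood at -0.37, 1.41 and 1.56 log2 CPM, from 1, 14 and 21 counts, below the watered trees at 2.80, 2.18 and 2.14. The dpe1 fold was -1.29 ± 0.71 (adjusted p = 0.278). The lowest dpe1 value was in a watered library, tree 9 on 23 May, at -0.98 log2 CPM from 1 count. That library was far from its companions.

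Among the phosphorylase rows, starchp3 and starchp2 showed the widest gaps between arms on 6 June. For starchp3 the dried trees stood at 4.23, 4.32 and 4.69 log2 CPM and the watered trees at 7.54, 6.08 and 5.83. The arms were separate and the dried trees close together, and the fold was -2.27 ± 0.81 (SE, edgeR adjusted p = 0.101). On 23 May they were already separate, at 4.63, 3.49 and 4.71 log2 CPM in dried and 5.56, 5.36 and 6.11 in watered trees (-1.34 ± 0.78, adjusted p = 0.523). For starchp2 the dried trees on 6 June stood at 4.92, 2.20 and 5.93 log2 CPM, tree 8 far below the others, and the watered trees at 6.42, 6.82 and 7.51 (-1.99 ± 0.77, adjusted p = 0.123). For starchp1 the dried trees stood at 2.32, 1.31 and 2.30 log2 CPM and the watered trees at 3.35, 2.36 and 3.03, a separation that was narrow between dried tree 4 and watered tree 9. The fourth row of the name, starchp4, held 9.25, 0 and 6.88 expected counts in watered trees 3, 9 and 11 and 0 in the 3 dried trees. Counts of starchp3 and starchp4 were not whole in 12 libraries each.

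The aglucan rows differed from each other. For aglucan2 the dried trees on 6 June stood at 5.05, 4.20 and 6.06 log2 CPM and the watered trees at 4.17, 3.57 and 4.11. It was the only tested member with a positive fold between arms on that day, 1.34 ± 0.57 (SE, edgeR adjusted p = 0.154), and dried tree 8 was only just above watered tree 3. On 23 May aglucan2 stood at 6.12, 5.59 and 6.21 log2 CPM in the dried trees, while watered tree 3 was at 6.95 and trees 9 and 11 at 4.30 and 4.51. For aglucan1 the arms overlapped on 6 June, at 3.38, 4.59 and 4.58 log2 CPM in dried and 5.24, 4.60 and 4.47 in watered trees. The row gluct1 also overlapped, at 4.86, 3.93 and 6.04 log2 CPM in dried and 5.68, 6.01 and 6.50 in watered trees, because dried tree 12 stayed within the watered range.

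Set against all rows, 0 of 11 members passed the edgeR threshold between arms on 6 June, where 0.103% of all tested rows did. At an unadjusted p under 0.05 there were 5 members, 1 higher and 4 lower, against 24.3% of all tested rows, and DESeq2 called 4 members (mex1, dpe2, starchp2 and starchp3, all lower) and 15.1% of the rows to which it gave an adjusted p. Of the 11 members, 6 did not overlap and were at least 1 log2 unit lower in dried trees, against 15.4% of all tested rows, and 1 was as far higher, against 7.97%. The median fold of the members was -1.18, and that of all tested rows was -0.25. The 19 tested rows for amylases and isoamylase3, which cut starch into maltose and short glucans, had a median of -0.25, with none called by edgeR. On 23 May 0 members were called by edgeR (0% of all tested rows) or by DESeq2 (1.94% of all rows with an adjusted p). At an unadjusted p under 0.05 there were 0 (11.2% of all tested rows), while 2 were separate and lower (7.95%) and 0 separate and higher (2.75%).

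On 7 May and 29 July no member differed between arms beyond the spread of the trees, which with 3 trees an arm does not show that the arms were equal. On 7 May 0 members were called by edgeR (0% of all tested rows) and 0 had an unadjusted p under 0.05 (3.4%). DESeq2 gave an adjusted p to only 5 members and called 0 of them, against 3.23% of all rows with an adjusted p. The member folds ran from -0.41 to 0.56. On 29 July 0 members were again called by edgeR (0% of all tested rows) or DESeq2 (0.0719% of all rows with an adjusted p). At an unadjusted p under 0.05 there were 0 (0.141% of all tested rows), and the folds ran from -0.31 to 0.23. No member was both separate between arms and 1 log2 unit apart on either day, where on 7 May 0.814% of all tested rows were separate and higher and 0.426% lower, and on 29 July 0.618% and 1.27%.

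Within the dried trees most members stood lower on 6 June than on 7 May, though none passed edgeR's threshold. The 7 May levels of mex1 were 2.51, 1.63 and 1.41 log2 CPM in trees 4, 8 and 12, and the 6 June levels -0.37, -2.54 and -1.20. The mex1 fold was -4.03 ± 1.04 (SE, edgeR adjusted p = 0.0553), and with the tree as a replicate block it was -4.03 (adjusted p = 0.0944). It passed without the watered 7 May library of tree 9 (adjusted p = 0.0118), without tree 9 (0.0136), without tree 3 (0.0416), with no filter (0.042) and in DESeq2 (0.00287). Those settings called 11.4%, 12.7%, 5.52%, 1.44% and 15.6% of all rows with an adjusted p. The mex1 fall did not pass without tree 4, 8, 11 or 12, with DESeq2 size factors in edgeR or without the abundant rows. Nor did it pass without the 2 shallow libraries or with rows that share reads summed. For dpe2, from 4.34, 4.49 and 4.74 log2 CPM on 7 May, the fold was -1.46 ± 0.44 (adjusted p = 0.0695). For dpe1, from 2.71, 3.02 and 3.38, it was -1.94 ± 0.72 (adjusted p = 0.107). Each of the 3 dried trees moved down in both disproportionating rows, with changes from -1.72 to -1.15 in dpe2 and from -3.08 to -1.61 in dpe1.

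The phosphorylase rows moved the same way in each dried tree over these 30 days. The fold was -1.92 ± 0.80 for starchp3 (edgeR adjusted p = 0.14), -1.29 ± 0.50 for starchp1 (adjusted p = 0.121) and -1.43 ± 0.76 for starchp2 (adjusted p = 0.232). In starchp2 the spread between trees was wide, with changes of -1.33, -4.18 and -0.69 in trees 4, 8 and 12. By 23 May starchp3 already stood -1.97 ± 0.80 from its 7 May level (adjusted p = 0.184) and dpe1 -1.28 ± 0.69 (adjusted p = 0.31), while aglucan2 stood 1.63 ± 0.57 above (adjusted p = 0.131). These 3 rows were separate between those days and at least 1 log2 unit apart, which gives 2 members lower against 14.5% of all tested rows and 1 higher against 6.58%. In that comparison 0 members were called by edgeR (0.144% of all tested rows), 2 had an unadjusted p under 0.05 (19.5%), and DESeq2 called 1 member and 9.6% of all rows with an adjusted p.

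From 7 May to 6 June 0 of 11 members were called by edgeR in dried trees, where 1.09% of all tested rows were. At an unadjusted p under 0.05 there were 6 members, all lower, against 26% of all tested rows in either direction, and DESeq2 called 4, namely mex1, dpe1, dpe2 and starchp1, and 15.6% of all rows with an adjusted p. Members separate between the days and at least 1 log2 unit lower numbered 6, against 15.6% of all tested rows, and 0 were as far higher, against 9.48%. Tree by tree, 9, 10 and 9 of 11 members were lower on 6 June in dried trees 4, 8 and 12, with median changes of -1.49, -1.61 and -0.69. Of all tested rows 60.5%, 54.7% and 52.4% were lower in these trees, with medians of -0.47, -0.22 and -0.08. In watered trees 3, 9 and 11, 4, 2 and 5 of 11 were lower, with medians of 0.03, 1.65 and 0.17, the value of tree 9 starting from its 7 May library, unlike its group. Of all tested rows 48.9%, 35.3% and 53.8% were lower there, with medians of 0.00, 0.66 and -0.12.

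The interval from 6 June to 29 July gave the only members called by edgeR among the 12 comparisons: mex1, dpe2, starchp1 and starchp3 rose in dried trees. In the maltose exporter row mex1 the 29 July levels were 2.62, 2.69 and 2.86 log2 CPM in trees 4, 8 and 12, and the rise was 4.85 ± 1.04 (SE, edgeR adjusted p = 0.0225). Pooled counts went from 3 to 379, a rate 32.5-fold higher with an exact 95% interval of 11 to 158 that again covers counting error only. In the phosphorylase row starchp3 the levels reached 7.81, 7.47 and 7.99 log2 CPM, a rise of 3.35 ± 0.84 (adjusted p = 0.0271), and each tree moved by 3.15 to 3.58. In starchp1 the levels reached 3.64, 3.76 and 3.88 log2 CPM, a rise of 1.78 ± 0.51 (adjusted p = 0.0341). In the disproportionating row dpe2 they reached 4.46, 4.62 and 4.25 log2 CPM, a rise of 1.37 ± 0.44 (adjusted p = 0.0445). In all 4 rows the dried trees of 29 July were above every dried tree of 6 June. The SD over the 3 trees was lower in July for mex1, dpe2 and starchp1 and about the same for starchp3.

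Further members pointed upward over the same interval without passing. For aglucan1 the 29 July levels were 5.52, 5.28 and 5.73 log2 CPM and the fold 1.23 ± 0.44 (SE, edgeR adjusted p = 0.0637). For dpe1 the levels were 2.27, 2.64 and 3.27 log2 CPM (1.66 ± 0.71, adjusted p = 0.106), and for starchp2 they were 6.73, 6.40 and 6.89 (1.69 ± 0.76, adjusted p = 0.123). In each of these rows the days were separate. The folds of mex3, gluct1 and mex2 lay between 0.44 and 0.92, and that of aglucan2 was -0.41, the only one below 0.

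**Figure D4:**
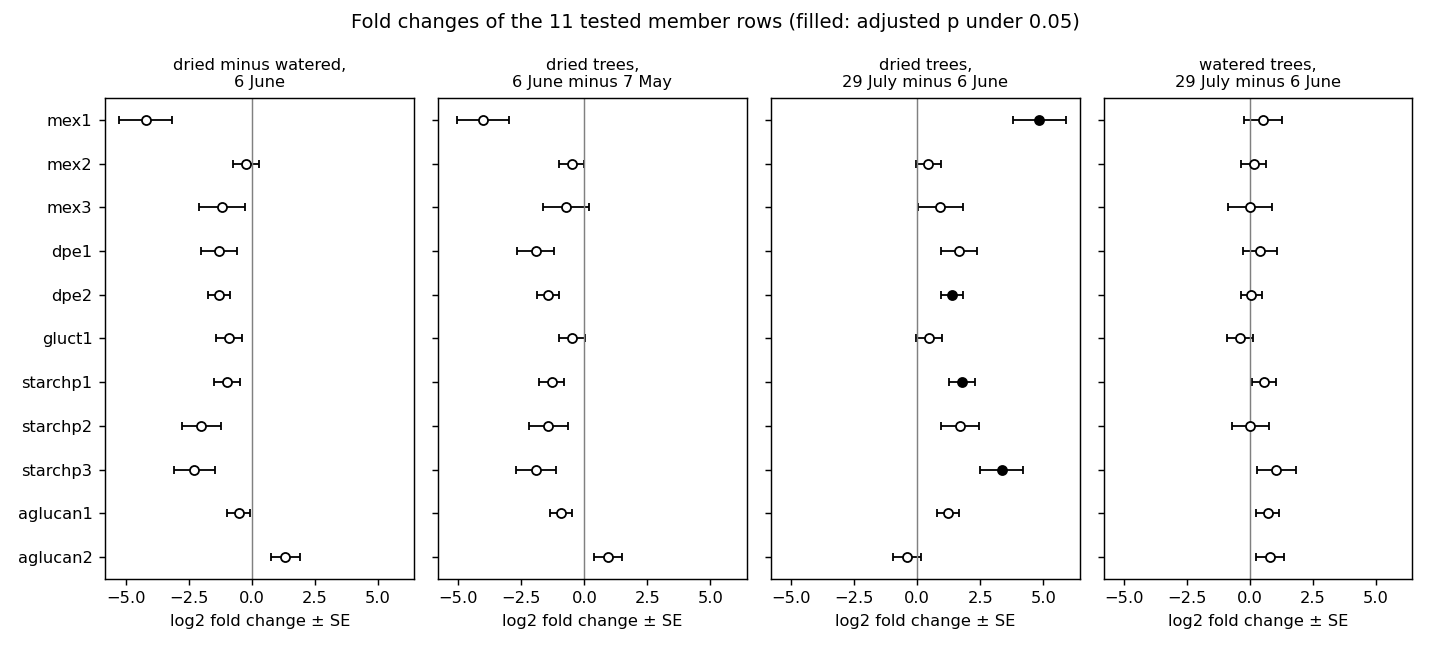
The log2 fold change (horizontal axis) with its SE for the 11 tested rows in 4 comparisons, with filled points for an edgeR adjusted p under 0.05. The filled points are mex1, dpe2, starchp1 and starchp3 in dried trees from 6 June to 29 July, from 1.37 to 4.85, and aglucan2 is the row on the other side of 0 in the first 3 panels.

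That interval moved much of the table. The 4 calls were 36.4% of the 11 members, all higher, while 7.5% of all tested rows were called higher, 5.58% lower and 13.1% in either direction. At an unadjusted p under 0.05 there were 7 members, all higher, against 34.4% of all tested rows in either direction (5590 rows higher and 4419 lower). Members separate between the days and at least 1 log2 unit higher numbered 7, against 27.3% of all tested rows, and 0 were as far lower, against 15.1%. The median member fold was 1.37, that of all tested rows 0.20, and that of the 19 amylase and isoamylase3 rows 0.94. Of those 19, 1 rose (bamylase12, 2.16, edgeR adjusted p = 0.028) and 3 fell (bamylase10, bamylase2 and bamylase3, with folds of -4.10, -4.14 and -5.05). The beta-amylases of plants release maltose from starch.

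These calls depended on each of the 3 dried trees. Without tree 4, tree 8 or tree 12 edgeR called 0 members and 0 rows in all, and the mex1 adjusted p was 0.123, 0.151 and 0.153 with folds of 5.45, 4.20 and 5.17. Without watered tree 11, 2 members and 4.86% of all tested rows were called, and without watered tree 9, 6 members and 24.2%. Without the 2 shallow libraries 1 member (mex1, 5.43, adjusted p = 0.0352) and 6.11% of all tested rows were called. DESeq2 called 7 members and 24.6% of all rows with an adjusted p. With the tree as a replicate block the same 4 members were called, with adjusted p from 0.0345 to 0.0485, though the count over all rows went from 3805 to 2372. The share of counts in the abundant rows went over this interval from 57.5% and 66.0% to 11.1% and 18.5% in trees 8 and 12, and from 91.1% to 74.0% in tree 4. With those rows left out of the fit the folds were 4.74 in mex1 (adjusted p = 0.0239), 3.23 in starchp3 (adjusted p = 0.029), 1.67 in starchp1 (adjusted p = 0.0411) and 1.25 in dpe2 (adjusted p = 0.0571, no longer called), each slightly below the fold with them. The median fold over the rows in both fits moved by -0.12, so the whole scale shifted by about as much as these members.

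In watered trees 0 members were called in any interval by edgeR or DESeq2, and 0 had an unadjusted p under 0.05. Over all tested rows edgeR called 0.0206% from 7 May to 23 May, 0% from 7 May to 6 June and 0% from 6 June to 29 July. In these intervals 16.4%, 9.01% and 4.07% of all tested rows had an unadjusted p under 0.05. DESeq2 called 6.19%, 2.22% and 0.058% of all rows with an adjusted p. No member was both separate between days and 1 log2 unit apart, where over the 3 intervals in turn 3.64%, 2.88% and 2.57% of all tested rows were separate and higher and 2.9%, 1.58% and 2.53% lower. From 6 June to 29 July the member folds ran from -0.40 in gluct1 to 1.05 in starchp3, with a median of 0.39. In mex1 the watered trees stood at 2.26, 2.18 and 1.79 log2 CPM on 6 June and 2.54, 2.90 and 2.23 on 29 July.

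Whether the dried trees changed by more than the watered trees was tested as the difference between the changes of the 2 arms. From 7 May to 6 June that difference was -4.35 ± 1.29 in mex1 (SE, edgeR adjusted p = 0.0752) and -1.74 ± 0.61 in dpe2 (adjusted p = 0.116). In starchp1 it was -1.16 ± 0.69 (adjusted p = 0.347) and in dpe1 -1.67 ± 0.97 (adjusted p = 0.334). It was -2.55 ± 1.10 in starchp3 (adjusted p = 0.189) and -2.19 ± 1.06 in starchp2 (adjusted p = 0.24). The watered change starts in part from the 7 May library of tree 9, unlike its group. In watered trees 3, 9 and 11 mex1 moved by 0.04, 3.03 and -0.42 log2 CPM. For dpe2 these changes were 0, 1.23 and 0.20, for dpe1 -0.11, 1.78 and -1.16, and for starchp1 -0.31, -0.11 and 0.17. Over this interval 0 members were called by edgeR against 1.07% of all tested rows, 4 had an unadjusted p under 0.05 against 21.1%, and DESeq2 called 2 members and 11% of all rows with an adjusted p. From 6 June to 29 July the difference between the changes was 4.35 ± 1.29 in mex1 (adjusted p = 0.351), 1.32 ± 0.60 in dpe2 (adjusted p = 0.394), 2.30 ± 1.10 in starchp3 (adjusted p = 0.409) and 1.21 ± 0.69 in starchp1 (adjusted p = 0.482). It was 1.28 ± 0.97 in dpe1 (adjusted p = 0.625), 1.68 ± 1.05 in starchp2 (adjusted p = 0.526) and 0.53 ± 0.62 in aglucan1 (adjusted p = 0.786). Here edgeR called 0 members and 0% of all tested rows, 3 members had an unadjusted p under 0.05 against 12.2%, and DESeq2 called 1 member and 1.16% of all rows with an adjusted p. By edgeR the rise of the 4 members in dried trees was therefore not shown to differ from the change in watered trees.

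The order of the 8 groups placed dried trees on 6 June last in mex1, mex2, dpe2, gluct1, aglucan1, starchp1 and starchp2, and last but one in dpe1 and starchp3. For mex1 the order of mean log2 CPM was dried 29 July (2.72 ± 0.12), watered 29 July (2.56 ± 0.34), watered 23 May (2.55 ± 0.93), watered 6 June (2.08 ± 0.25), dried 7 May (1.85 ± 0.59), watered 7 May (1.19 ± 1.77), dried 23 May (0.31 ± 2.47) and dried 6 June (-1.37 ± 1.10), each ± SD over 3 trees. Every neighbouring pair in that order overlapped. For starchp1 the last pair did not overlap, dried 23 May at 2.71 ± 0.33 and dried 6 June at 1.98 ± 0.58. For aglucan2 dried 23 May came first at 5.97 ± 0.33 and watered 6 June last at 3.95 ± 0.33. Over the 24 libraries the SD of mex1 was 1.69 log2 units, at the 84.8th percentile of all tested rows.

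Across the 24 libraries most pairs of members correlated positively. Over 55 pairs of members Pearson's r of log2 CPM ran from -0.32 (aglucan2 with starchp3) to 0.86 (aglucan1 with starchp3), with a median of 0.53 and a mean of 0.46. The mean was 0.11 over pairs of the 76 other tested rows with author-given names and 0.04 over pairs of all tested rows. All 7 negative pairs involved aglucan2. These values are descriptions: the libraries share trees and days, and depth and the abundant rows moved with them. Against the percent of counts in the abundant rows, r was -0.77 for dpe1, -0.74 for aglucan1, -0.65 for starchp1 and -0.54 for starchp3. It was -0.51 for mex3, -0.50 for dpe2 and -0.44 for mex1. Weaker values were -0.27 for mex2, -0.25 for starchp2, -0.15 for gluct1 and -0.01 for aglucan2. The part of that percent in the pairs was not tested.

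**Figure D5:**
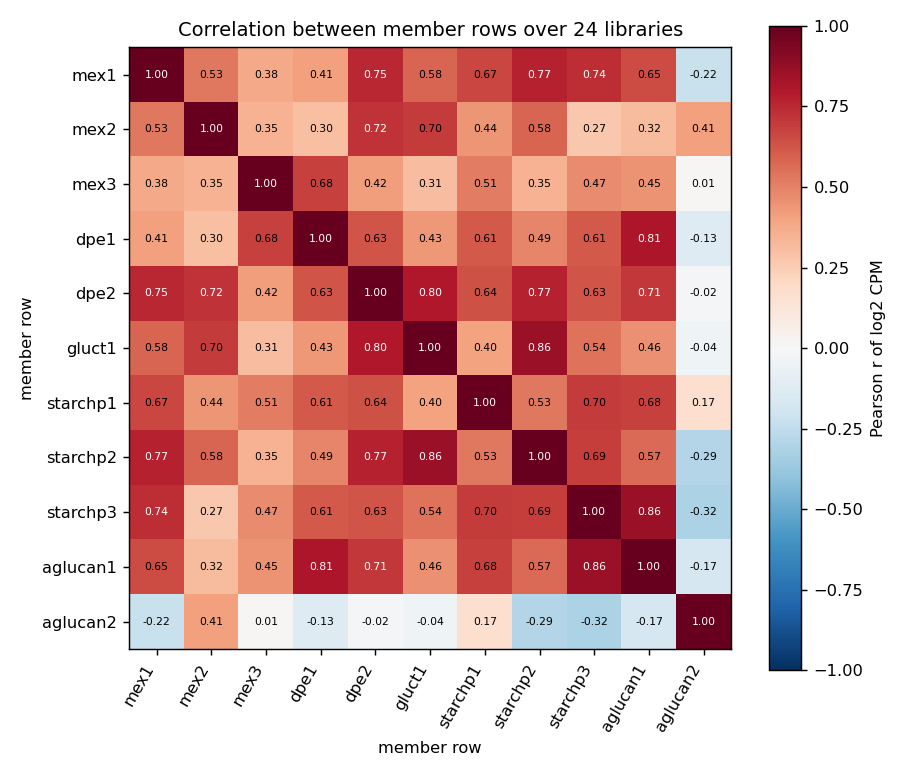
Pearson's r of log2 CPM between each pair of the 11 tested rows over 24 libraries, with red for positive and blue for negative values. The row and column of aglucan2 hold all 7 negative pairs, and the other pairs run up to 0.86.

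Among the 76 other tested rows with author-given names, those most like mex1 over the 24 libraries were agp5 (r = 0.89) and starchsyn1 (r = 0.88). For starchp3 they were sbe3 (r = 0.91) and pgm4 (r = 0.90), and for mex3 starchsyn7 (r = 0.93) and starchsyn9 (r = 0.74). The rows closest to dpe2 were hexokinase9 (r = 0.79) and bamylase1 (r = 0.77), and those closest to dpe1 isoamylase3 (r = 0.80) and hexokinase9 (r = 0.78). For starchp1 they were agp7 (r = 0.81) and bamylase8 (r = 0.77), and for starchp2 sbe1 (r = 0.84) and sbe3 (r = 0.82). For aglucan1 they were sucsynthase7 (r = 0.89) and pgm4 (r = 0.87), and for gluct1 sbe3 (r = 0.76) and hexokinase2 (r = 0.75). Lower values were found for mex2, with starchsyn3 (r = 0.73) and starchsyn5 (r = 0.66), and for aglucan2, 0.70 with both ugp1 and invertase11.

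The authors' deposited table listed mex1, dpe2, starchp2 and starchp3 with adjusted p of 0.0214, 0.0121, 0.0448 and 0.0481 in its comparison ctrl_2_drought_2, where 10.2% of 25073 rows with a p were under 0.05. The log2 fold changes in the authors' deposited table for these rows were 4.37, 1.74, 2.71 and 2.85. Its header gives neither the days nor the order of subtraction, so no direction is read from the sign. For ctrl_1_drought_1 the authors' deposited table had 0 of 6 members with a p under 0.05 (1.89% of 5919 rows), and for after_3_ctrl_3 it had 0 of 11 (0.022% of 31870 rows).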

How the data were processed

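RNA of branches was extracted with CTAB and sequenced as poly-A libraries, per the labels' protocols. The submitters' processing notes name RSEM with Bowtie2, cutadapt, limma and DESeq2. No version or genome build is stated in the sources used here. RSEM expected counts per gene make up the deposited count table and were rounded before testing. A deposited table of the authors' comparisons holds a log2 fold change and an adjusted p-value per row.

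Counts were tested in R 4.3.3 with edgeR 4.0.16 (its quasi-likelihood test, with TMM factors, the filterByExpr filter and a mean for each group of arm and day, fitted over all 24 libraries), and p-values were Benjamini-Hochberg adjusted over 29107 rows and called under 0.05. A standard error is the size of the log2 fold change divided by the root of the F statistic. The prior count behind log2 CPM was 2. DESeq2 1.42.0 was an alternative. The test was run on simulated counts that had the same spread setting in every row. That check does not show how the test performs at the uneven spread of these libraries. Rows were called abundant at a mean share of at least 0.2% and a correlation of at least 0.95 with the most abundant row. Trees are the replicates. Tree numbers pair libraries between days because the same tree was sampled on each. Residuals of the same tree correlated at -0.03 to 0.18 on average.

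Members and lists were chosen with earlier results of these data known. Folds with their errors are given for a member where the groups did not overlap and the log2 fold was at least 1 in size. For mex1 they are also given between arms on every day, and for members so named, in the differences between arms. The 2 most correlated named rows are given per member. The gene table of assembly O_europaea_v1 matched 0 rows of the count table, so coordinates and sequences are not given. A deposited table of scaled values was not used. No pair of libraries was identical.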

Additional observations from a re-analysis of the deposited data

Results flagged for a closer look

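From 7 May to 6 June, 3 of the 11 members moved one way in all 3 dried trees and the other way in all 3 watered trees, as did 5.58% of all tested rows. For starchp3 the changes in log2 CPM were -2.88, -1.76 and -0.53 in dried trees 4, 8 and 12 and 0.26, 4.38 and 0.46 in watered trees 3, 9 and 11, and the fitted difference between the arms was -2.55 (edgeR adjusted p = 0.189). For starchp2 they were -1.33, -4.18 and -0.69 in dried trees and 0.25, 3.59 and 0.35 in watered trees, a difference of -2.19 (adjusted p = 0.24). For aglucan2 they were 0.41, 0.21 and 1.64 in dried trees and -0.32, -1.64 and -0.43 in watered trees, a difference of 1.74 (adjusted p = 0.212). None of the 3 differences passed the test. In each row the change of watered tree 9 was the one farthest from its companions, and it starts from the 7 May library unlike its group. Without that library the differences were -2.01, -1.67 and 1.47.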

How the results depend on the processing

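Of 559 recomputed folds of 40 member results, 497 kept their direction and side of the threshold, 19 lost the call, 39 gained it and 4 reversed. The reversed folds were those of mex1 between arms on 7 May, 0.15 as reported, which was -0.29 without the watered 7 May library of tree 9 and ran from -0.30 (without tree 9) to 0.45 (without tree 11) when each tree was left out, with -0.29 without tree 4, and on 29 July, 0.14 as reported, which ran from -0.01 (without tree 11) to 0.34. Counts of members called changed as follows, and the cause was not tested. Shares in brackets are those called of all rows with an adjusted p in the same setting. With DESeq2 the count between arms on 6 June went from 0 to 4 (15.1%). In dried trees it went from 0 to 1 from 7 May to 23 May (9.6%) and from 0 to 4 from 7 May to 6 June (15.6%). From 6 June to 29 July it went from 4 to 7 (24.6%). For the differences between arms it went from 0 to 2 (11%) and from 0 to 1 (1.16%). With no filter, 1 member was called between arms on 6 June (1.12%) and 1 in dried trees from 7 May to 6 June (1.44%). Without the watered 7 May library of tree 9 these counts were 4 (11.2%) and 4 (11.4%), and 1 from 7 May to 23 May (4.81%). Leaving out each tree gave 0 to 3 (0% to 7.58%), 0 to 4 (0% to 12.7%) and 0 to 1 (0% to 4.72%) in these comparisons. From 6 June to 29 July it gave 0 to 6 (0% to 24.2%). Leaving out the 2 shallow libraries gave 1 there (6.11%). That alternative was added after the data were seen with 2 others (without the abundant rows, and with rows that share reads summed). With tree as replicate block, member calls did not change. Over all rows edgeR called 30 between arms on 6 June (DESeq2 4058, and 0 without the abundant rows), 316 in dried trees from 7 May to 6 June (DESeq2 4323, replicate block 0) and 3805 from 6 June to 29 July (DESeq2 7534, replicate block 2372). Low counts limit mex1, dpe1, mex3 and starchp4 most.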
